A study of Mus musculus with 24 samples.

Results

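Lymphocytes in mouse liver were followed through 34 genes that mark T cells (16 genes), NK and other cytotoxic cells (8), B cells (8) and plasma cells (2). They were taken by name from the 28034 genes on the array, and the brightest of each gene's probes stood for it. Of the 34 members, 28 had a probe that stood well above background on 4 or more of the 24 arrays and were tested among 19040 genes. These 28 were 14 T cell, 8 NK and cytotoxic, 5 B cell and 1 plasma cell gene. The costimulatory receptors Cd28 and Ctla4, the B cell receptor chain Cd79a, the B cell kinase Blk, the B cell factor Pax5 and the plasma cell receptor Tnfrsf17 did not pass, being above background on 0 to 2 arrays.

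The samples were 24 mouse liver RNAs, 4 in each of 6 groups: treated dKO females, treated WT females, treated dKO males, treated WT males, untreated dKO females and untreated WT females. dKO livers lacked the forkhead factors Foxa1 and Foxa2, and WT livers were wild type. Treated mice were given the carcinogen DEN (20 mg/kg) when 14 to 15 days old and then TCPOBOP (3 mg/kg), a tumour promoter that activates the nuclear receptor CAR, in 8 injections 2 weeks apart. All 24 samples carry the tissue label liver tumor, untreated ones included. The sources used here name neither the cell type in which the alleles were deleted nor the age at collection, and untreated males were not analysed here. No label says that replicates came from separate animals, and the p-values therefore reflect only the variation among the samples given, which may be technical.

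T cells recognise antigen through a receptor that signals by way of the CD3 chains and the kinases Lck and Zap70, and they are divided by the coreceptors CD4 and CD8. NK cells, which are abundant in mouse liver, and CD8 T cells kill target cells with perforin and granzymes. B cells carry a surface antibody coupled to CD79, and plasma cells, which derive from them, secrete antibody.

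Each probe was a 60-base oligonucleotide, placed by the files on the mouse build mm9. The probes printed are those of genes on which the comparisons turn, and 30 of 60 bases are given for the last 4. The Cd3d probe lies at chr9:44794171-44794402 (plus strand) and the Cd3g probe at chr9:44781716-44782300 (minus strand). They covered 232 and 585 bases of genome, more than their own length, so they read across spliced exons. The Klrk1 probe (chr6:129562482-129562771, minus strand) also covered more than 60 bases of genome (290). The probes of Zap70 (chr1:36838210-36838269, plus strand), Gzmb (chr14:56877916-56877975, minus strand) and Cxcr5 (chr9:44320071-44320130, minus strand) each lay in 1 unbroken stretch of 60 bases. Capitals in the Zap70 probe mark GTAAG, the letters found at the start of many introns. These letters begin at base 22 of that probe, and on the printed strand they occurred in 4.27% of 41174 probes and in 2 of the 28 member probes, those of Zap70 and Cd247. They were looked for after the Zap70 values had been seen, and whether the probe reads spliced or unspliced RNA was not tested.
Cd3d: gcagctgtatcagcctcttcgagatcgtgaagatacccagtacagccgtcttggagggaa
Cd3g: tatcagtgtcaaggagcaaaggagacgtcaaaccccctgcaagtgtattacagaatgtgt
Zap70: tcctggacttcatcaagcaggGTAAGagga
Gzmb: ccccgagaatgttatctaatgctagtcatc
Klrk1: aacaagagaattgtctcgggagaaattggg
Cxcr5: gggaaaccaatgctatagcttcagagactg

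Levels below are log2 signals relative to each array's 75th percentile, and they are compared between arrays for 1 probe, never between probes. Differences are given on the log2 scale with their standard errors (±), estimated by limma over all 24 arrays and called at an adjusted p under 0.05. Between 50.4% and 68.4% of spots per array were above background (65.0% to 68.4% in treated dKO females). Foxa1 was above background on 0 of 12 dKO arrays, at log2 levels of -5.93 or less, against all 12 WT arrays, at -3.36 or more. Foxa2 was above background on 7 of 12 dKO arrays, at -1.93 or less, against all 12 WT arrays, at 3.55 or more. Defining genes of hepatocytes (13 of 13 measured) and macrophages or dendritic cells (19 of 19) passed the filter, so the RNA held other liver cells beside lymphocytes. In bulk RNA of this kind, fewer cells of a type and less RNA per cell cannot be told apart.

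**Figure D1:**
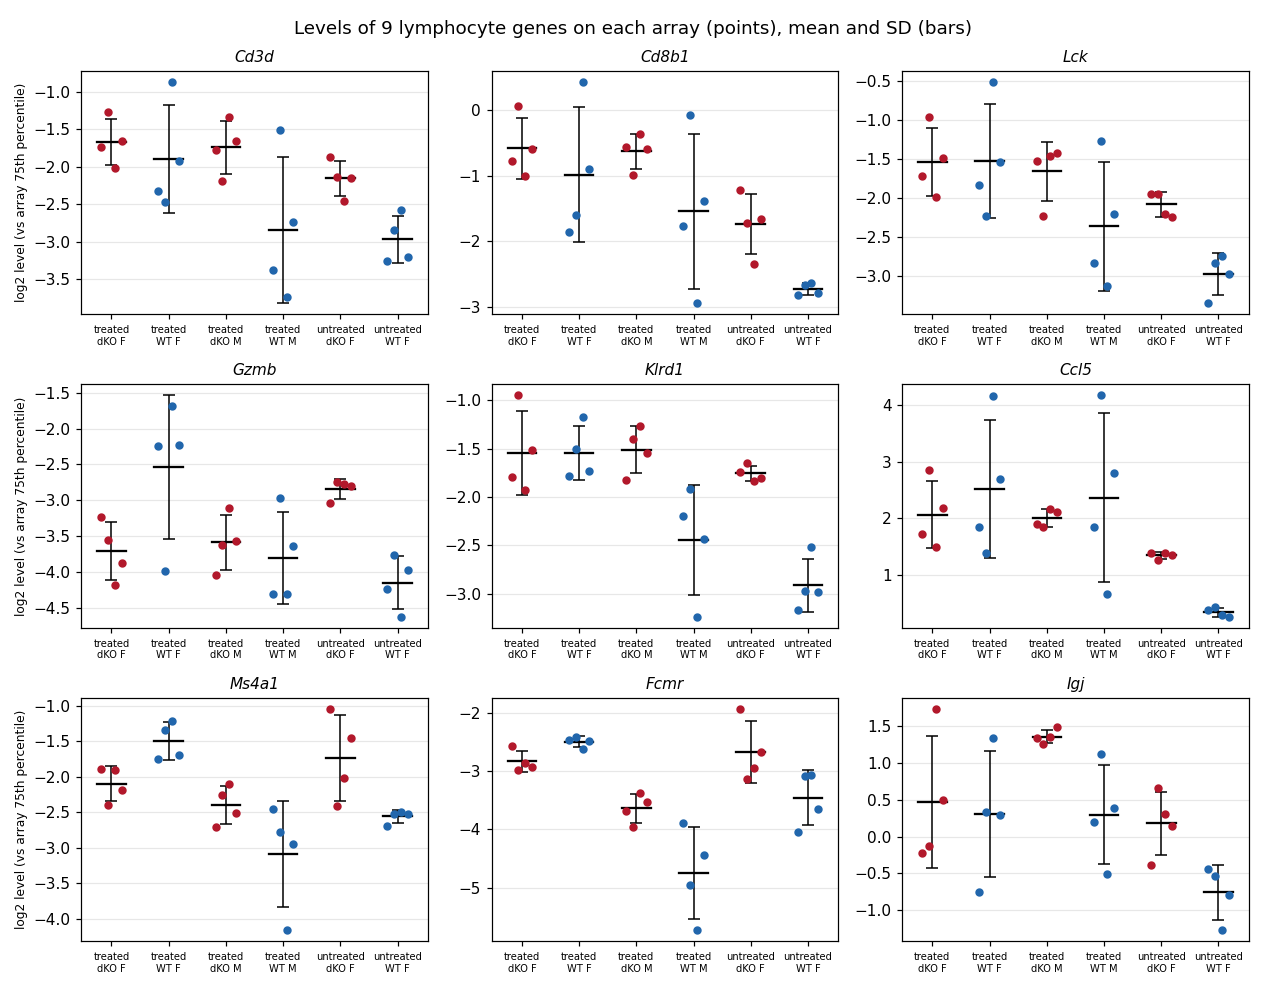
Log2 level (relative to the array's 75th percentile) of 9 members, 1 per panel, on each array (points, dKO red and WT blue) in the 6 groups along the x axis, with the group mean and SD (bars, n = 4). Klrd1 lay between -1.83 and -1.65 in untreated dKO females and between -3.17 and -2.52 in untreated WT females, and Fcmr lay between -2.63 and -2.41 in treated WT females and between -5.73 and -3.89 in treated WT males.

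Without treatment, NK and cytotoxic genes had more signal in dKO than in WT female livers, as did other leukocyte genes. Medians were 0.99 for cytotoxic, 0.83 for B cell and 0.68 for T cell members, and 1.12 for macrophage and dendritic cell genes. Of 28 members 7 were higher and 1 lower, where 9.8% of all genes tested were called (5.18% higher and 4.62% lower). The 7 were 4 cytotoxic genes (Gzma, Gzmb, Klrd1 and Klrk1), the T cell receptor chain Cd3g and the B cell genes Cd22 and Cxcr5. The median over the 28 was 0.84, beside -0.04 over all genes, and 26 of 28 differences were above 0.

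Klrd1, the CD94 chain of NK cell receptors, was at -1.74, -1.65, -1.83 and -1.80 in untreated dKO females, against -3.17, -2.98, -2.52 and -2.99 in untreated WT females. All 4 dKO arrays were above all 4 WT arrays, and the rise was 2.23-fold (1.16 ± 0.24, adjusted p = 0.00362). Granzyme A (Gzma), a protease of cytotoxic granules, was at -2.54, -2.35, -2.62 and -2.52 in dKO, against -3.73, -2.98, -4.07 and -3.60 in WT. Granzyme B (Gzmb) was at -3.04, -2.74, -2.77 and -2.80 in dKO, against -4.24, -3.76, -4.62 and -3.97 in WT. The groups did not overlap for either granzyme, with differences of 1.09 ± 0.31 (adjusted p = 0.0305) for Gzma and 1.31 ± 0.38 (adjusted p = 0.0333) for Gzmb. Klrk1, the activating receptor NKG2D, rose by 0.97 ± 0.25 (adjusted p = 0.0162), above background on all 4 dKO arrays and on 2 of 4 WT arrays. Perforin (Prf1, 0.29 ± 0.33), the granule protein Nkg7 (0.86 ± 0.37) and the chemokine Ccl5 (1.01 ± 0.56) were not called.

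Among T cell genes, Cd3g was at -2.50, -3.17, -3.28 and -2.77 in untreated dKO females, against -4.24, -3.98, -4.14 and -4.52 in untreated WT females. The groups did not overlap (1.29 ± 0.37, adjusted p = 0.0317). Cd3d (0.81 ± 0.38), the kinase Lck (0.90 ± 0.36) and Cd8a (1.26 ± 0.56) had positive differences that were not called (adjusted p = 0.12 to 0.185). Of B cell genes, the inhibitory coreceptor Cd22 (1.25 ± 0.37, adjusted p = 0.0369) and the chemokine receptor Cxcr5, which guides B cells into follicles (0.88 ± 0.26), were higher in dKO, each above background on 2 of 4 WT arrays. Zap70 was the member that was lower, and its values are given further on. On the 2 slides that held both groups the median member difference was 1.08 and 0.44. The count of 8 calls was 2 to 5 when any one array other than replicate 2 of the untreated WT females was left out, 1 with normexp background correction, 3 with slide as a fixed block and 4 with array position as a covariate. Gzma, Gzmb and Cd22 each kept their call in 1 of 8 left-out fits, Cd3g and Cxcr5 in 3, Klrk1 in 6 and Klrd1 in all 8. Among 16 pan-leukocyte genes 1 was higher and 0 lower (median 0.93, with 15 of 16 differences above 0). Their summed linear level, in multiples of the 75th percentile, was 16.6 to 21.7 in dKO and 10.98 to 14.7 in WT. Among 19 macrophage and dendritic cell genes 3 were higher, and all 19 differences were above 0 (median 1.12). Of genes of other liver cells, 8 of 12 biliary genes were higher and 1 lower (median 2.03, above the 0.99 of the cytotoxic members), and 5 of 12 stellate cell and fibroblast genes were higher (median 0.74). The part of these lists in the lymphocyte result was not tested.

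In WT females, DEN and TCPOBOP went with a rise of genes of all 3 lymphocyte lineages, and with more member calls than any of the other 8 comparisons. Of 28 members 17 were higher and 1 lower in treated than in untreated WT females, where 17.2% of all genes were called (8.49% higher and 8.7% lower). The rise included 7 T cell genes, 5 cytotoxic genes and all 5 measured B cell genes, and the member median was 1.06, beside -0.06 over all genes. Cd8a, Ccl5, Cd247 and Cd8b1 had the largest differences.

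Cd8a was at -3.45, -4.66, -0.86 and -2.46 in treated WT females, against -6.30, -5.11, -4.63 and -5.27 in untreated WT females, where it was above background on 2 of 4 arrays. The treated arrays were widely spread and replicate 2 overlapped the untreated range, with a difference of 2.47 ± 0.56 (adjusted p = 0.00558). Cd8b1, its partner chain, was at -1.87, -1.61, 0.44 and -0.90 in treated WT females, against -2.82, -2.67, -2.63 and -2.79 in untreated WT females. Here the groups did not overlap, and the rise was 3.35-fold (1.74 ± 0.48, adjusted p = 0.0164). Lck, the kinase that starts T cell receptor signalling, was at -1.83, -2.22, -0.51 and -1.53 in treated livers, against -3.35, -2.83, -2.74 and -2.97 in untreated livers (1.45 ± 0.36, adjusted p = 0.00903). Replicate 3 of the treated WT females had the highest Cd8a, Cd8b1 and Lck of its group. The receptor chains Cd247 (1.93 ± 0.46, above background on 1 of 4 untreated arrays) and Cd3g (1.18 ± 0.37), the T cell surface receptor Cd5 (1.15 ± 0.36) and the costimulatory receptor Icos (1.01 ± 0.21) also rose, with adjusted p of 0.00339 to 0.033. Cd4 (-0.12 ± 0.17) was not called.

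Ccl5, a chemokine made by activated T and NK cells, was at 1.84, 1.38, 4.16 and 2.69 in treated WT females, against 0.38, 0.43, 0.29 and 0.26 in untreated WT females. All treated arrays were higher, by 4.53-fold on average (2.18 ± 0.56, adjusted p = 0.0116). Gzmb (1.61 ± 0.38), Klrd1 (1.36 ± 0.24), Klrk1 (1.07 ± 0.25) and Il2rb, the receptor chain for IL-2 and IL-15 (0.85 ± 0.29), were higher too. Of B cell genes, Cxcr5 was at -3.49, -3.65, -3.17 and -3.80 in treated WT females, against -4.93, -4.52, -5.15 and -4.49 in untreated WT females. The groups did not overlap for Cxcr5 (1.24 ± 0.26, adjusted p = 0.00274), nor for Cd22 (1.40 ± 0.37), Ms4a1, which encodes CD20 (1.06 ± 0.30), Cd79b (1.04 ± 0.32) or the IgM receptor Fcmr (0.96 ± 0.31). The plasma cell gene Igj (now Jchain), which joins antibody units, was at -0.75, 0.34, 1.35 and 0.30 in treated livers and -0.44, -0.53, -1.28 and -0.79 in untreated ones. These Igj ranges overlapped, and the difference of 1.07 ± 0.42 was not called (adjusted p = 0.0888). Within 3 slides the median member difference was 0.51 to 1.19. Without replicate 3 of the treated WT females 10 members were called instead of 18, and with normexp 10. The pan-leukocyte genes moved in the same comparison (12 of 16 higher, summed level 19.5 to 47.3 in treated and 10.98 to 14.7 in untreated WT females), as did 12 of 19 macrophage and dendritic cell genes, and their part in the result was not tested.

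**Figure D2:**
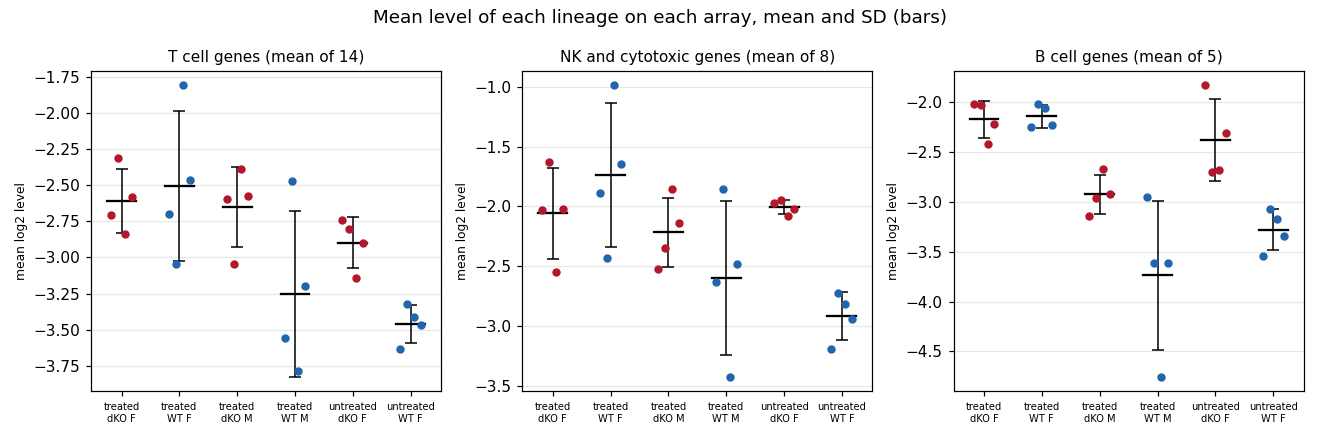
Mean log2 level of the measured T cell (14), NK and cytotoxic (8) and B cell (5) genes on each array (points), with the group mean and SD (bars, n = 4). B cell means lay at -2.25 to -2.02 in treated WT females, above the -4.76 to -2.95 of treated WT males and the -3.54 to -3.07 of untreated WT females.

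In dKO females 3 members were called with treatment, and further lymphocyte genes went both ways. Of 23 further B and plasma cell genes 9 were higher and 1 lower. Of 25 further T cell genes 5 were higher and 4 lower, and of 16 further cytotoxic genes 3 and 1. The B cell members had a median of -0.11, with 2 of 5 differences above 0. Of 28 members 2 were higher and 1 lower in treated than in untreated dKO females, against 37.9% of all genes called (16.3% higher and 21.5% lower). Cd5 was at -1.69, -0.94, -1.64 and -1.35 in treated dKO females, against -2.08, -2.36, -2.59 and -2.33 in untreated dKO females (0.93 ± 0.36, adjusted p = 0.0466). Cd22 was at -1.52, -1.12, -2.93 and -1.80 in treated dKO females, against -2.57, -2.96, -3.20 and -3.07 in untreated dKO females (1.11 ± 0.37, adjusted p = 0.0232). The groups overlapped for Cd22 and not for Cd5. Zap70 was the lower gene. Gzma (-0.75 ± 0.31, adjusted p = 0.0616) and Gzmb (-0.87 ± 0.38, adjusted p = 0.0778) had negative differences that were not called, and Cd8a a positive one (1.43 ± 0.56, adjusted p = 0.0509). The member median was 0.21, and it was -0.03 to 0.48 within 3 slides. The count of 3 was 1 without replicate 3 or replicate 4 of the untreated dKO females and 5 without replicate 3 of the treated dKO females. Without replicate 2 of the treated dKO females 2 were called, both lower, so neither Cd5 nor Cd22 kept its call. Pan-leukocyte genes were higher in this comparison (9 of 16, summed level 26.2 to 63.2 in treated and 16.6 to 21.7 in untreated dKO females), and so were 11 of 19 macrophage and dendritic cell genes, 7 of 12 biliary and 7 of 12 stellate cell and fibroblast genes, while 5 of 13 hepatocyte genes were lower. With array position as a covariate 0 members were called, where 257 of 19040 genes were called in place of 7210. All treated dKO female arrays were at position 4, so group and position were hard to tell apart in that fit.

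In treated females, loss of Foxa1 and Foxa2 went with no member called higher and 3 called lower, Zap70, Icos and Gzmb. Lymphocyte genes outside the members, some of them called higher, are given further on. Among all genes 29.9% were called (13.5% higher and 16.4% lower), so 3 of 28 is no excess over that background. Icos was at -1.78, -2.51, -2.49 and -2.41 in treated dKO females, against -1.21, -1.70, -1.63 and -1.34 in treated WT females. The groups did not overlap, and Icos was 1.77-fold lower in dKO (-0.83 ± 0.21, adjusted p = 0.00716). Gzmb was at -3.23, -3.56, -4.17 and -3.87 in dKO, against -2.25, -3.99, -1.69 and -2.23 in WT. Replicate 2 of the WT females lay among the dKO values, and the difference was -1.17 ± 0.38 (adjusted p = 0.0256). Gzmb kept its call in 3 of 8 left-out fits, whereas Icos and Zap70 kept theirs in all 8. The other 12 T cell genes were not called. Differences of Cd3d (0.23 ± 0.38), Lck (-0.01 ± 0.36) and Cd8a (0.22 ± 0.56) were smaller than their standard errors, and those of Cd27 (-0.45 ± 0.23) and Cd3e (-0.41 ± 0.33) were larger than theirs. The member median was 0.01 and turned to -0.39 with normexp background correction, which called 10 members, all lower, and gave a median over all genes of -0.23 in place of -0.07. With normexp 7000 of 19040 genes were called, 1726 of them higher, so most calls over all genes were lower too. Median centring and quantile normalization also gave medians below 0 (-0.05 each). Within 2 slides the member median was -0.38 and 0.20. Without replicate 2 of the treated WT females 6 members were called. In the same comparison 1 of 16 pan-leukocyte genes and 8 of 19 macrophage and dendritic cell genes were higher (pan-leukocyte summed level 26.2 to 63.2 in dKO and 19.5 to 47.3 in WT). So were 11 of 12 biliary and 9 of 12 stellate cell and fibroblast genes, while 5 of 13 hepatocyte genes (median -0.47) and 4 of 12 endothelial genes were lower. The mean hepatocyte level was 5.40 on replicate 2 of the treated dKO females and 6.65 to 7.27 on the other 3, against 7.26 to 7.47 in treated WT females. Without that replicate 3 members were called, all lower, and the member median was -0.15. With array position as a covariate 0 members were called, where 22 of 19040 genes were called in place of 5698. All treated dKO female arrays were at position 4, so group and position were hard to tell apart there. The part of these lists in the result was not tested.

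In treated males 5 of 28 members were higher in dKO and 0 lower, where 25.3% of all genes were called (14.4% higher and 10.9% lower). As a count of calls, 5 of 28 is no excess over that background. The 5 were Cd3d, Il2rb, Klrd1, Cd22 and Fcmr, and 25 of 28 differences were above 0 (median 0.66, beside 0.04 over all genes). Cd3d was at -1.77, -2.19, -1.34 and -1.65 in treated dKO males, against -3.38, -1.51, -3.74 and -2.74 in treated WT males. Replicate 2 of the WT males lay within the dKO range, and the other 3 WT arrays were lower (1.104 ± 0.377, adjusted p = 0.0365). Cd3d kept its call in 2 of 8 left-out fits, Cd22, Fcmr and Il2rb each in 7 and Klrd1 in all 8. Klrd1 was at -1.83, -1.40, -1.26 and -1.54 in dKO, against -2.20, -1.92, -3.24 and -2.43 in WT. Klrd1 did not overlap between groups (0.94 ± 0.24, adjusted p = 0.00663). Cd22 was at -2.61, -2.85, -2.62 and -2.67 in dKO, against -3.12, -3.59, -5.24 and -3.84 in WT (1.26 ± 0.37, adjusted p = 0.0161), again with no overlap. Fcmr was 1.11 ± 0.31 higher (adjusted p = 0.0113) and Il2rb 0.997 ± 0.290 higher (adjusted p = 0.0151), and Fcmr was above background on 2 of 4 WT arrays. Igj was at 1.35, 1.26, 1.36 and 1.49 in dKO males, against 0.19, 1.13, -0.51 and 0.39 in WT males. Every dKO array was above every WT array for Igj, but the difference of 1.06 ± 0.42 was not called (adjusted p = 0.0721).

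The treated WT males were uneven, and the male comparison rested on which arrays were used. Without replicate 2 of the WT males 14 members were called, all higher in dKO, and without replicate 3 there was 1. Within slides the median member difference was 0.82 and 1.44 on the slides with WT replicates 4 and 3, and -0.33 on the slide with WT replicate 2, where the T cell median was -0.60 and the B cell median 0.74. The count was 1 with normexp background and 0 with the array's position on its slide as a covariate. Over all genes 2549 were called with normexp and 131 with position, in place of 4808. All 4 treated WT male arrays were at 1 position. The summed pan-leukocyte level was 21.6 to 27.6 in dKO and 11.2 to 45.5 in WT males, with 2 of 16 genes higher, and 4 of 19 macrophage and dendritic cell genes were higher. Among other liver cell genes, 11 of 12 biliary (median 2.80) and 5 of 12 stellate cell and fibroblast genes (median 1.05) were higher, and 2 of 13 hepatocyte genes were lower. Their part in the male result was not tested.

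**Figure D3:**
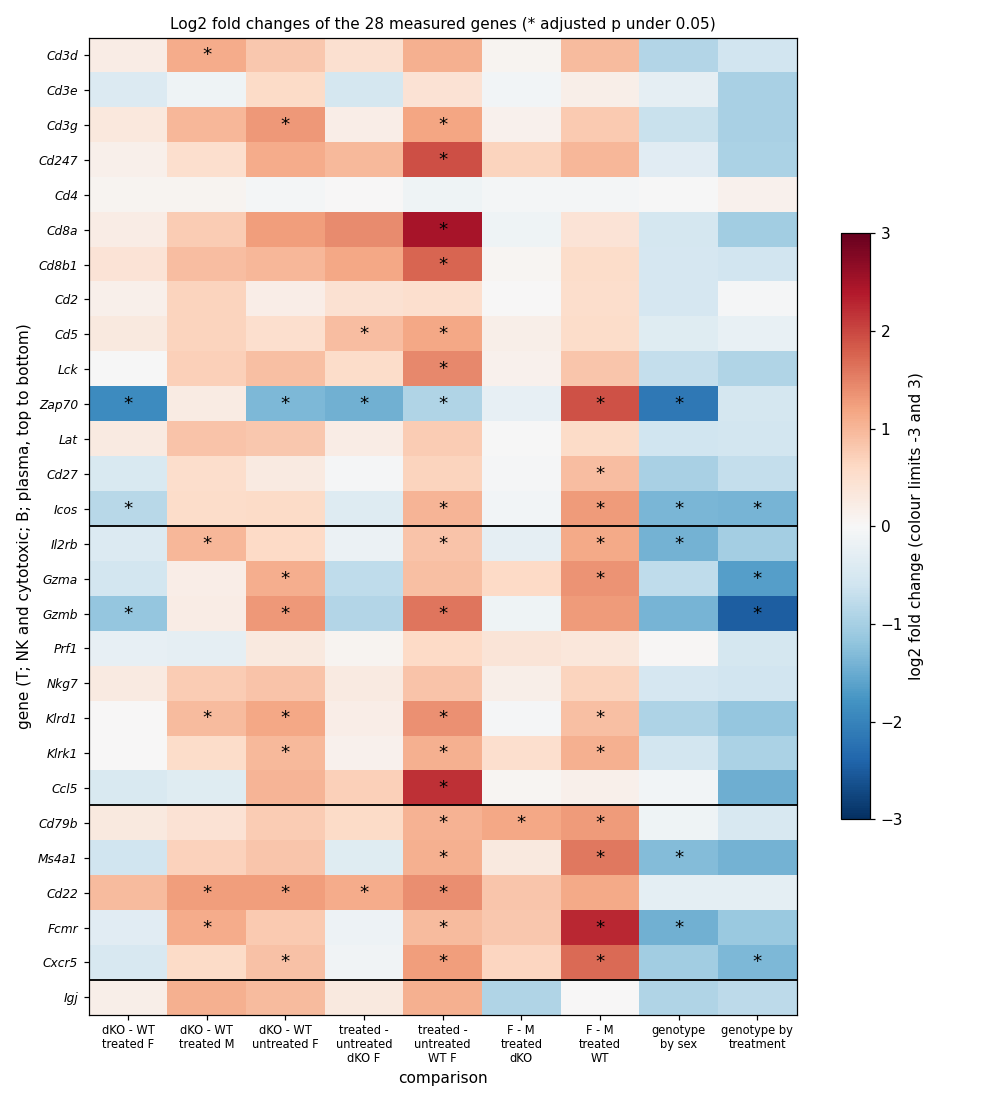
Log2 fold change of each of the 28 measured members (rows, with lines between the lineages) in 7 comparisons and 2 interactions (columns, F female, M male), as colour: red is higher and blue lower in the group named first, and an asterisk marks an adjusted p under 0.05. Most members are red in untreated dKO over WT females and in treated over untreated WT females, where Zap70 is blue, and in treated WT females over males, where Zap70 is red.

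Among treated WT livers, females had more B cell gene signal than males. Array means of the B cell members were -2.25 to -2.02 in females and -4.76 to -2.95 in males, without overlap. Means of the T cell members overlapped (-3.04 to -1.81 in females and -3.78 to -2.47 in males). So did those of the cytotoxic members (-2.43 to -0.99 in females and -3.42 to -1.85 in males). Of 28 members 11 were higher in females and 0 lower, where 6.17% of all genes were called (2.87% higher and 3.3% lower). They were 4 of 5 B cell genes, 4 of 8 cytotoxic genes and 3 of 14 T cell genes (Zap70, Cd27 and Icos), and the medians were 1.59 for B cell, 0.98 for cytotoxic and 0.69 for T cell genes. Zap70 did not follow the other T cell genes, as described further on. Fcmr was at -2.46, -2.41, -2.63 and -2.48 in treated WT females, against -3.89, -4.95, -5.73 and -4.43 in treated WT males. The groups were apart, by 4.77-fold (2.26 ± 0.31, adjusted p = 0.000162), with Fcmr above background on 2 of 4 male arrays. Over the alternative fits this difference was 1.02 to 2.54. Cxcr5 was at -3.49, -3.65, -3.17 and -3.80 in females, against -4.22, -5.69, -5.83 and -5.19 in males, where it was above background on 1 of 4 arrays (1.70 ± 0.26, adjusted p = 0.000449). Ms4a1 was at -1.75, -1.34, -1.21 and -1.69 in females, against -2.46, -2.77, -4.16 and -2.95 in males (1.59 ± 0.30, adjusted p = 0.00277). None of these B cell genes overlapped between the sexes, and Cd79b was higher as well (1.28 ± 0.32), while Cd22 was not called (1.15 ± 0.37, adjusted p = 0.0722).

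Gzma was at -2.38, -3.58, -2.32 and -2.53 in treated WT females, against -3.80, -4.12, -4.33 and -3.98 in treated WT males (1.35 ± 0.31, adjusted p = 0.0118). Icos, at -1.21, -1.70, -1.63 and -1.34 in females, was at -2.37, -2.46, -3.35 and -2.84 in males (1.28 ± 0.21, adjusted p = 0.00116). Neither gene overlapped between the sexes. Il2rb (1.14 ± 0.29), Klrk1 (1.06 ± 0.25), Klrd1 (0.90 ± 0.24) and the costimulatory receptor Cd27 (0.94 ± 0.23) were also higher, with adjusted p of 0.0133 to 0.0281. The CD3 chains, Cd8a, Cd8b1 and Lck were not called, with differences of 0.40 to 1.01 apart from Cd3e (0.18 ± 0.33). Of the pan-leukocyte genes 0 of 16 were called and of macrophage and dendritic cell genes 0 of 19, with medians of 0.42 and 0.48. Their summed pan-leukocyte level was 19.5 to 47.3 in females and 11.2 to 45.5 in males. On the 2 slides with both sexes the member median was 1.63 and 1.76. The count of 11 was 7 without replicate 3 or replicate 4 of the males or replicate 3 of the females, 5 with normexp and 5 with array position as a covariate.

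In treated dKO livers 1 of 28 members was called between the sexes, where 20.4% of all genes were called (7.98% higher and 12.5% lower in females). Cd79b, which couples the B cell receptor to its kinases, was at -0.26, 0.48, -0.47 and -0.05 in treated dKO females, against -1.73, -1.02, -0.81 and -1.33 in treated dKO males. The groups did not overlap (1.15 ± 0.32, adjusted p = 0.0171), and the call was lost without replicate 1 of the males or replicate 2 of the females. Without replicate 3 of the females 4 members were called. Fcmr (0.80 ± 0.31, adjusted p = 0.0693) and Cxcr5 (0.66 ± 0.26, adjusted p = 0.0749) were not called. Array means of the B cell members were -2.42 to -2.02 in dKO females and -3.14 to -2.66 in dKO males, without overlap. All 5 B cell differences were above 0, with a median of 0.80. The medians of the cytotoxic and T cell members were 0.11 and -0.0003.

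The test of the difference itself, dKO over WT in treated females minus the same in treated males, called 5 members, all negative, where 12.5% of all genes were called (5.24% positive and 7.25% negative). They were Zap70 (-2.15 ± 0.33, adjusted p = 0.000916), Icos (-1.37 ± 0.30, adjusted p = 0.00723), Il2rb (-1.42 ± 0.41, adjusted p = 0.0289), Fcmr (-1.45 ± 0.44, adjusted p = 0.0343) and Ms4a1 (-1.29 ± 0.42, adjusted p = 0.0487). For Icos, Il2rb, Fcmr and Ms4a1 the genotype difference was negative in females and positive in males. Taken by sex, Icos was called in females alone, Il2rb and Fcmr in males alone, and Ms4a1 in neither. The count was 2 without replicate 3 of the treated WT males, replicate 4 of the treated WT females, replicate 3 of the treated dKO males or replicate 4 of the treated dKO females. It was 3 without replicate 4 of the treated WT males, replicate 1 of the treated WT females, or replicate 1 or 4 of the treated dKO males. It was 3 with normexp and 2 with array position as a covariate.

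The matching test in females, treated over untreated in dKO minus the same in WT, called 4 members, all negative, where 5.16% of all genes were called (2.47% positive and 2.68% negative). Gzmb had the largest value (-2.48 ± 0.54, adjusted p = 0.0131), followed by Gzma (-1.65 ± 0.44, adjusted p = 0.035), Icos (-1.40 ± 0.30, adjusted p = 0.0132) and Cxcr5 (-1.36 ± 0.36, adjusted p = 0.0353). For Gzmb the treated arrays were lower than the untreated ones in dKO by 0.87 on average and higher in WT by 1.61. The count was 2 without replicate 1 or 3 of the treated WT females, replicate 1 of the untreated WT females, replicate 1 or 4 of the untreated dKO females, or replicate 4 of the treated dKO females. It was 0 with array position as a covariate, where all treated dKO female arrays were at position 4, and 2 with the replicate block or normexp. Over all genes 4 were called with position, 745 with the replicate block and 415 with normexp, in place of 982. Over all 28 members the medians of the sex and treatment interactions were -0.63 and -0.93.

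Zap70, the kinase that binds the phosphorylated CD3 chains, did not follow the other T cell genes. It was at -1.39, -2.13, -1.16 and -1.69 in treated dKO females, against -0.12, 0.74, 0.25 and 0.32 in treated WT females. In treated males it was at -1.72, -1.42, -0.99 and -1.28 in dKO and at -2.18, -1.59, -1.08 and -1.60 in WT. In untreated females it was at -0.29, -0.18, 0.01 and -0.16 in dKO, against 0.81, 1.49, 1.38 and 1.14 in WT. The WT female groups were highest and did not overlap with the dKO female groups given the same treatment, and the male groups overlapped each other. Zap70 was 3.70-fold lower in dKO among treated females (-1.89 ± 0.24, adjusted p = 1.19e-05) and 2.56-fold lower among untreated females (-1.36 ± 0.24, adjusted p = 0.00078), with 0.26 ± 0.24 in males (adjusted p = 0.471). It was lower in treated than in untreated livers, by 2.71-fold in dKO (-1.44 ± 0.24) and by 1.87-fold in WT females (-0.91 ± 0.24). Treated WT females were 3.75-fold above treated WT males (1.91 ± 0.24, adjusted p = 6.05e-05). Each of these called differences kept its sign within every slide that held both groups.

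Across the 24 arrays, which share their groups, the correlation of Zap70 with the mean of the other T cell members was -0.42, as a description. Lck (0.97), Cd3d (0.96), Lat, an adaptor of the receptor (0.91), and Cd5 (0.91) followed that mean closely, whereas Cd3e (-0.30) and Cd4 (-0.09) did not. Cd3e had a second probe, above background on 2 arrays, that correlated at 0.21 with the one used. The second Cd4 probe, above background on 1 array, correlated at -0.20. Other probes of Cd247 (0.47, -0.21 and -0.27, above background on 5, 0 and 0 arrays), Cd22 (0.42, on 2 arrays) and Klrk1 (0.58, on 7 arrays), all genes with called differences, also followed the ones used loosely or not at all. Those of Icos (0.72) and one of Cd8a (0.74) followed more closely, and those of Ccl5, Igj, Nkg7, Ms4a1 and the other of Cd8a correlated at 0.94 to 0.99. Zap70 had 1 probe. Genes outside all lists whose levels were among the closest to Zap70 were Mgmt, a DNA repair enzyme, Tmem266, Htra4 and an array entry listed as NAP031874-1 (r = 0.91 to 0.92 over 24 arrays). That comparison was chosen after the Zap70 values were seen.

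**Figure D4:**
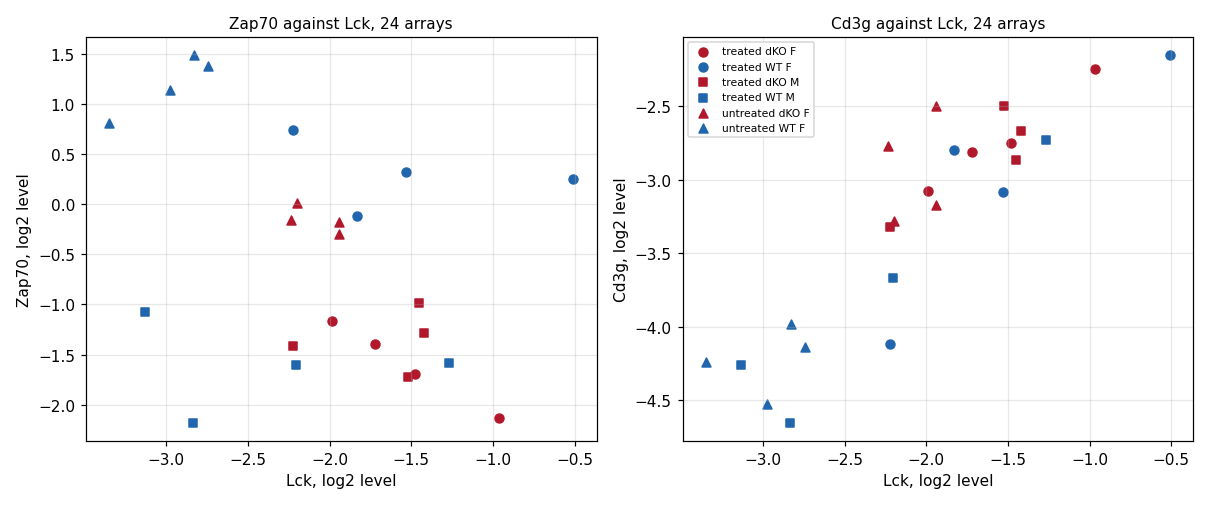
Log2 level of Zap70 (left) and of Cd3g (right) against Lck on each of the 24 arrays, by group. Cd3g rose along with Lck over the arrays, whereas Zap70 was highest on the untreated WT female arrays, where Lck was low.

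Outside the lists, the 5 genes whose levels were closest to the mean of the T cell members were Spn, the leukocyte sialoglycoprotein CD43, Itgb7, a homing integrin of lymphocytes, AI467606, and the array entries ENSMUST00000103291 and ENSMUST00000103299 (r = 0.93 to 0.95 over 24 arrays). NK and B cell members varied with the same mean, at 0.43 (Gzma) to 0.93 (Nkg7) for cytotoxic and 0.45 (Fcmr) to 0.68 (Cd79b) for B cell genes. All of these correlations share the groups and the array scaling.

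Further T cell genes gave a mixed picture. Of 25 measured, 2 were higher and 0 lower in untreated dKO over WT females, 2 and 3 in treated females, 5 and 4 in treated males, 5 and 4 in treated over untreated dKO females, 10 and 1 in treated over untreated WT females, 1 and 1 in treated dKO females over males, and 4 and 1 in treated WT females over males. In the same order, 5.18% and 4.62%, 13.5% and 16.4%, 14.4% and 10.9%, 16.3% and 21.5%, 8.49% and 8.7%, 7.98% and 12.5%, and 2.87% and 3.3% of all genes were higher and lower, and these shares also stand behind the lists that follow. Pdcd1, the inhibitory receptor PD-1, was higher in dKO among treated females (1.57 ± 0.46, adjusted p = 0.0147) and among treated males (1.95 ± 0.46, adjusted p = 0.00373), and higher with treatment in dKO (2.80 ± 0.46, adjusted p = 0.000195) and in WT females (1.90 ± 0.46, adjusted p = 0.00837). Themis, a regulator of thymocyte selection, was lower in dKO males (-1.64 ± 0.21, adjusted p = 8.48e-06) and lower in WT females than in WT males (-1.95 ± 0.21, adjusted p = 1e-05), with a positive interaction by sex (1.46 ± 0.29, adjusted p = 0.00398). The factor Gata3 was higher in untreated dKO females (1.75 ± 0.37, adjusted p = 0.00412).

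Of 16 further NK and cytotoxic genes, 4 were higher and 0 lower in untreated dKO over WT females, 0 and 0 in treated females, 6 and 0 in treated males, 3 and 1 in treated over untreated dKO females, 10 and 0 in treated over untreated WT females, 0 and 0 in treated dKO females over males, and 5 and 0 in treated WT females over males. The cytotoxic cell chemokine Xcl1 (1.82 ± 0.43, adjusted p = 0.00936), the death ligand Fasl (1.24 ± 0.29, adjusted p = 0.00943), the liver-homing receptor Cxcr6 (1.17 ± 0.35, adjusted p = 0.0402) and Klrc1, the NKG2A partner of Klrd1 (1.09 ± 0.23, adjusted p = 0.00421), rose in untreated dKO females. Xcl1 was also higher in dKO males (1.95 ± 0.43, adjusted p = 0.00206), as was Cxcr6 (1.35 ± 0.35, adjusted p = 0.00768). Klrc1 was called in both interactions, by sex (-1.27 ± 0.32, adjusted p = 0.016) and by treatment (-1.68 ± 0.32, adjusted p = 0.00774). Gzmm, another granzyme, had a positive interaction by treatment (1.54 ± 0.40, adjusted p = 0.0296).

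Among 23 further B and plasma cell genes, 5 were higher and 1 lower in untreated dKO over WT females, 2 and 2 in treated females, 6 and 2 in treated males, 9 and 1 in treated over untreated dKO females, 10 and 0 in treated over untreated WT females, 5 and 0 in treated dKO females over males, and 7 and 0 in treated WT females over males. Fcer2a, the IgE receptor CD23 (1.88 ± 0.32, adjusted p = 0.0015), and the BAFF receptor Tnfrsf13c (1.74 ± 0.40, adjusted p = 0.0117) were higher in treated WT females than males, beside the B cell members. The IgM heavy chain Ighm was higher in treated than in untreated WT females (2.46 ± 0.31, adjusted p = 3.08e-05) and lower in dKO than in WT among treated females (-1.30 ± 0.31, adjusted p = 0.00392) and males (-1.86 ± 0.31, adjusted p = 0.00015). In the treatment interaction Ighm was negative (-2.25 ± 0.43, adjusted p = 0.00759) and Derl3 positive (2.42 ± 0.57, adjusted p = 0.0193).

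Genes for chemokines and cytokines that attract or keep lymphocytes were measured for 16 of 17 listed. Of these, 3 were higher and 0 lower in untreated dKO over WT females, 3 and 2 in treated females, 6 and 1 in treated males (median -0.11), 8 and 3 in treated over untreated dKO females, 7 and 0 in treated over untreated WT females, 3 and 2 in treated dKO females over males, and 5 and 0 in treated WT females over males. Cxcl11, a ligand of the receptor Cxcr3 on activated T cells, was lower in dKO among treated females (-1.40 ± 0.29, adjusted p = 0.00147). In the treatment interaction 3 were negative, Il7, Cxcl11 and Il15. Ccl17, a ligand of the chemokine receptor Ccr4 on T cells, was higher in dKO in every genotype comparison, by 3.45 ± 0.48 in treated females (adjusted p = 4.11e-05), 4.63 ± 0.48 in treated males (adjusted p = 8.98e-07) and 1.95 ± 0.48 in untreated females (adjusted p = 0.0134). Il7, a survival factor for T cells, was higher in untreated dKO females (2.87 ± 0.38, adjusted p = 5.02e-05) and higher with treatment in WT females (2.99 ± 0.38, adjusted p = 3.77e-05). Tnfsf13b, the B cell survival factor BAFF, was higher in dKO among treated females (1.94 ± 0.32, adjusted p = 0.000194) and males (1.95 ± 0.32, adjusted p = 0.000134).

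Promoter windows from RefSeq (GRCm38.p6) were found for 22 of the 34 members, in 25 windows, and the 250 bases before each start were searched on both strands for 3 motifs, none of which contains another. AGGAAG, the core of ETS factor sites, was in 52.0% of the member windows and 29.5% of all 32851 windows. TGTGGT, the core of Runx sites, was in 28% and 14.0%. TGTTTAC, the core of forkhead sites, was in 0 of 25 member windows and 3.17% of all windows. These are descriptions of letters, not of binding. The window of Cd3d, which moved with most T cell genes, and the windows of Zap70 that hold the motif are shown, all on the plus strand, with AGGAAG or its reverse complement CTTCCT in capitals.
Cd3d, chr9:44981536-44981785: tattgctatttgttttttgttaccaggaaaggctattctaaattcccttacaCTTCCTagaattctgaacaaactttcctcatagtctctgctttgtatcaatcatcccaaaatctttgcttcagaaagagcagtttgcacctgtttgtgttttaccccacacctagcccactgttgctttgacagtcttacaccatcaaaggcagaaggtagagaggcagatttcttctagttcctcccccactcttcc
Zap70, chr1:36761548-36761797: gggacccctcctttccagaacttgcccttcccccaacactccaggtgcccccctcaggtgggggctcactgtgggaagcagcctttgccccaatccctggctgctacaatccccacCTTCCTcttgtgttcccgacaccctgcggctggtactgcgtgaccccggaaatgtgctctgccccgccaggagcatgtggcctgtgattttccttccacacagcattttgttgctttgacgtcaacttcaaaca
Zap70, chr1:36764265-36764514: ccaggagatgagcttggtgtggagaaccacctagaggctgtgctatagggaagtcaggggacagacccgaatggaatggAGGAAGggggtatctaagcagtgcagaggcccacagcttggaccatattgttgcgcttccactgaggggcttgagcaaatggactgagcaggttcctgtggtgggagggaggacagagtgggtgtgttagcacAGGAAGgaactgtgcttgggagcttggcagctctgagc
Cd3d held 1 match and the Zap70 windows 1 and 2, and the other Zap70 window held none.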

How the data were processed

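Liver RNA from 24 samples was amplified with WT-Ovation Pico, labelled with Cy3 by BioPrime and hybridised to 1-colour Agilent arrays, on 6 slides of 4. Per the labels' protocols, RNA came from liver samples and sorted cells, without saying which. Per the file headers the deposited signals are intensities read with Feature Extraction 10.5.1.1, whereas the submitters' processing notes give 9.53. For each comparison the authors deposited signed fold changes, treated here as a score whose normalization no source used here states. Each member called here had the same sign there, in all 7 comparisons that table covers. Both come from the same samples, so the shared sign is not independent evidence.

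Processed signals were taken as log2 minus each array's 75th percentile (433 to 959.9), with outlier spots (72 to 127 an array) removed and replicate spots of a probe averaged. The filter asked for a signal well above background on 4 or more of the 24 arrays, no spot was saturated, and each of 19040 genes was represented by its brightest probe. Arrays correlated at 0.885 to 0.990, and 4 arrays per group limited the precision. In limma 3.58.1 (R 4.3.3, data.table version 1.17.8) 6 group means were fitted over all arrays with moderated variances, and p-values were adjusted by Benjamini-Hochberg over all genes within each of 9 comparisons (threshold 0.05). Figures and sequences used Python 3.11.15, matplotlib 3.10.9 and pandas 2.3.3. The fit was run on simulated data with independent noise per gene and no slide or position effect, so those effects were not covered.

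Members and lists were chosen with earlier results of these data known. All 34 members are named, and of each other list described at most 4 genes per comparison, those called with the largest absolute log2 fold change. Some genes that met these rules are not reported here. Replicate numbers were not used to pair the samples in the main fit. Deviations of 28 same-numbered pairs correlated at -0.34 to 0.34, with 5 above 0.1. Differently numbered pairs were not compared and some same-numbered pairs shared a slide, so these values cannot show whether samples were paired. Alternatives were normexp background (offset 50), a fit of only the groups compared, other filters, slide, replicate number or array position as a term, other centrings, other probe summaries, outlier spots kept, and each replicate left out. No probe annotation of exons was used here.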

Additional observations from a re-analysis of the deposited data

Results flagged for a closer look

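In 6 of 168 gene and group combinations examined, 1 array of 4 stood far from the other 3, where chance gives about 1 in 20. Cd3e was at -2.84 in replicate 1 of the untreated dKO females, with the nearest other array at -2.14. Lck was at -2.23 in replicate 2 of the treated dKO males (nearest -1.52), and Icos was at -2.57 in the same sample (nearest -2.10). Icos was at -1.78 in replicate 1 of the treated dKO females (nearest -2.41). Cd27 was at -3.88 in replicate 2 of the treated WT males (nearest -4.75), the sample in which most T cell genes were also highest of that group. Gzma was at -3.58 in replicate 2 of the treated WT females (nearest -2.53).

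The genotype difference depended on sex among treated livers, by limma's interaction test, for Zap70 (-2.15), Fcmr (-1.45), Il2rb (-1.42), Icos (-1.37) and Ms4a1 (-1.29). The treatment difference depended on genotype among females for Gzmb (-2.48), Gzma (-1.65), Icos (-1.40) and Cxcr5 (-1.36). Icos was the member called in both interactions. Its calls held in all 16 left-out fits of each, as did those of Zap70 by sex and Gzmb by treatment, whereas Ms4a1 kept its call in 3 of 16, Fcmr in 6 of 16, Gzma in 6 of 16, Cxcr5 in 7 of 16 and Il2rb in 11 of 16.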

How the results depend on the processing

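No called difference of a member changed sign under any alternative, and of 58 called differences 58 stayed called with slide as a random block, 58 with outlier spots kept, 55 with quantile normalization, 49 with slide as a fixed block, 42 without a filter, 28 with normexp and 25 with array position as a covariate. Only 15 members passed the filter on all 24 arrays, and all 31 of their called differences stayed called. The causes of the changes were not tested, apart from fewer genes or samples entering a fit.

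The counts of members called that moved by over 1.5 times were as follows. With normexp the count was 10 in place of 3 for treated dKO over WT females, 1 in place of 5 for males and 1 in place of 8 for untreated females. It was 10 in place of 18 for treatment in WT females, 5 in place of 11 for sex in WT, 3 in place of 5 for the sex interaction and 2 in place of 4 for the treatment interaction. In the order given, normexp called 7000, 2549, 729, 1875, 515, 1293 and 415 of all genes. The main fit called 5698, 4808, 1866, 3273, 1175, 2379 and 982. With only the groups compared the member count was 3 for males, 15 for untreated females, 5 in place of 3 for treatment in dKO females, 3 in place of 1 for sex in dKO, 6 for sex in WT and 3 for the sex interaction. Without a filter it was 3 for untreated females, 3 for the sex interaction and 2 for the treatment interaction. With the filter on all arrays it was 3 for males, 2 for untreated females, 11 for treatment in WT and 6 for sex in WT. Slide as a fixed block gave 8 for males and 3 for untreated females. Array position gave 0 for treated females, 0 for males, 4 for untreated females, 0 for treatment in dKO, 5 for sex in WT, 2 for the sex interaction and 0 for the treatment interaction. In the same order, the position fits called 22, 131, 973, 257, 481, 699 and 4 of all genes. Without position these were 5698, 4808, 1866, 7210, 1175, 2379 and 982. All treated dKO female arrays were at position 4 and all treated WT male arrays at position 1. Quantile normalization gave 2 for sex in dKO, and median centring gave 3 for the sex interaction.

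With the replicate block the count was 2 for the treatment interaction, and 4, 4, 6, 2, 15, 1, 11 and 4 in the other comparisons, in the order of treated females, males, untreated females, treatment in dKO, treatment in WT, sex in dKO, sex in WT and the sex interaction. Leaving out each replicate gave 2 to 6 for treated females, 1 to 14 for males, 2 to 7 for untreated females, 1 to 5 and 10 to 19 for treatment in dKO and WT, 0 to 4 and 7 to 15 for sex in dKO and WT, 2 to 6 for the sex interaction and 2 to 5 for the treatment interaction.

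Over all genes, 1726 of 7000 calls were higher in treated dKO females with normexp, against 2569 of 5698, and 1762 of 4759 in treated dKO males with median centring, against 2738 of 4808. Members close to background (Cd247 was above it on 16 arrays) carry the least certain differences.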
